A study of Homo sapiens with 12 samples.

Results

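The 10 genes described here encode integrins and laminins: the alpha subunits ITGA2, ITGA3, ITGA6 and ITGAV, the beta subunits ITGB1, ITGB4 and ITGB5, and the laminin chains LAMA5, LAMB1 and LAMC1. They were taken by name from the 20056 protein-coding genes of the RefSeq gene table for GRCh38.p14. A peak was counted in a gene when its midpoint lay inside the gene span on the strand of the gene. All 10 genes had at least 1 peak in at least 1 library, and together they held 167 of the 126599 peaks listed in 6 libraries. Of all protein-coding genes, 12281 had such a peak.

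Integrins are receptors made of an alpha and a beta subunit that anchor cells to the extracellular matrix and pass signals from it into the cell. Laminins are trimers of an alpha, a beta and a gamma chain, and they are the main adhesive proteins of the basement membrane on which the intestinal epithelium rests. The pair of ITGA6 and ITGB4 holds epithelial cells to laminin at hemidesmosomes, the rivet-like junctions linked to keratin filaments. ITGB1 pairs with many alpha subunits, ITGA2 and ITGA3 among them, and ITGAV pairs with ITGB5 to bind vitronectin.

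N4-acetylcytidine (ac4C) is an acetylated form of the RNA base cytidine, and NAT10 is the enzyme that writes it. In acetylated RNA immunoprecipitation sequencing (acRIP-seq), fragmented RNA is pulled down with an antibody against ac4C and sequenced, and stretches rich in reads are listed as peaks. The cells were SW620, a human colorectal cancer line, carrying either a control shRNA (shControl, genotype WT, 3 libraries) or an shRNA against NAT10 (shNAT10, genotype NAT10 knockdown, 3 libraries). In the study such lines were made with lentivirus and kept under puromycin selection, and the labels do not say which NAT10 shRNA was used or whether the replicates were separate cultures. The comparison between shControl and shNAT10 asks which transcripts carry ac4C that depends on NAT10.

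The libraries listed between 17877 and 28752 peaks, with the largest number in knockdown replicate 1, and the lists hold no read counts, so depth is unknown. The score of a peak was used only as a percentile within its library, where 100 is the highest. In each library 7.61% to 13.7% of the peaks sat at exactly 3100, which puts them at one tied percentile between 92.7 and 96.0, and peaks at this score have no order among themselves. NAT10 itself had 1, 0 and 2 peaks in the control and 2, 0 and 1 in the knockdown libraries, which does not measure the amount of its mRNA. Of 12 colorectal epithelial marker genes 9 had a peak and 6 had one in all 6 libraries, against 4 and 1 of 10 immune, endothelial and stromal markers. The epithelial genes at 0 in every library were KRT18, KRT20 and CDX1. CEACAM5 had 2, 1 and 3 peaks with shControl and none with shNAT10, so the groups did not overlap (exact permutation test, p = 0.1). Peak numbers were apart in this direction for 0.651% of all genes with a peak. The reads of CEACAM5 could be shared with close family members, which was not tested.

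Most of these genes had a peak near a RefSeq start site in at least 1 library. Of the 55 regions that the peaks formed after those overlapping by at least 1 base were merged, 9 had a midpoint within 500 bases of a RefSeq start site, and they lay in 8 of the 10 genes. Of these 9, 4 were listed in all 6 libraries and 2 in 1 library, and that of ITGB5 lies at a start inside the gene. Among all 12281 genes with a peak, 59.5% had such a region, but with a median of 2 regions per gene against 5 here. Counted by region, the share near a start was 16.4% here and 19.1% over all genes. The following genes had a peak long enough inside the start window of the RefSeq promoter table to show its first 30 transcribed bases. These stretches are printed because they are the reference transcript, written as DNA, at or near the 5′ edge of the listed peaks, 1 of which was found in control libraries alone. The cytosines, the base that ac4C modifies, are in capitals, and the rest is in lower case.
ITGA2, chr5:52989352-52989381, plus strand: agagaagCCCtCtggaCagCttCtagagtg
ITGA6, chr2:172427586-172427615, plus strand: aaCgggCtCattCagCggtCgCgagCtgCC
ITGAV, chr2:186590065-186590094, plus strand: CCtCagaCgCtgCgtggagCggCggagCCg
ITGAV, second start, chr2:186600205-186600234, plus strand: CtttgtagCtCCtggagattCaattCtttC
LAMA5, chr20:62367283-62367312, minus strand: agaCCCgCCgggCtCCCgCCgCgCgCgCtg
LAMB1, chr7:108003131-108003160, minus strand: ttCtttgggCtCgggggCtCCCggagCagg

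These are RefSeq sequences on GRCh38.p14. LAMA5 had the most cytosines, 15 of 30, and ITGA2 and the second ITGAV start the fewest, 7 of 30. The first 30 bases of all 22199 windows of protein-coding genes held a median of 9, with quartiles of 6 and 11. LAMB1, whose stretch lies in the peak found in the control libraries alone, had 8. Which cytosines are acetylated cannot be read from a peak. Promoter windows were held for 8 of the 10 genes, and ITGA3 and ITGB4 took their strand from their own peaks, all of which were on the plus strand.

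Most peaks of these genes, those at the 5′ ends included, kept the same edges from library to library. Of 36 regions listed in at least 2 libraries, 32 had an identical start and end in every library that listed them, which is 88.9% against 60.7% of such regions over all genes. The 4 exceptions were 3 regions of LAMB1 and 1 of ITGAV. The regions of the members were 74 to 675 bases wide with a median of 169, and the median over all genes was 179. Listed in all 6 libraries were 13 of the 55 regions, or 23.6%, against 21.8% over all genes, and 19 regions were listed in 1 library. Which regions are exonic, coding or untranslated was not analysed here.

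The number of peaks per gene did not separate the groups for any of the 10 genes. A gene was called when every library of one group had more peaks than every library of the other, which gives the smallest p that 3 against 3 libraries allow in an exact permutation test, 0.1. All such tests here were two-sided. This held for 0 of 10 members, while over all 12281 genes with a peak 0.651% were called with more peaks with shControl and 1.57% with more with shNAT10. Summed over the 10 genes, 28, 38 and 22 peaks were listed with shControl and 36, 23 and 20 with shNAT10. The means were 29.3 ± 8.08 (SD, n = 3) with shControl and 26.3 ± 8.505 (SD, n = 3) with shNAT10, and the sums overlapped. The difference of -3.0 peaks became 1.33 without control replicate 2, 0.167 without knockdown replicate 3 and -7.83 without knockdown replicate 1. Per 1000 peaks of the library they were 1.44 ± 0.303 (SD, n = 3) and 1.20 ± 0.129 (SD, n = 3). The median difference in peak number, knockdown minus control, was 0 over the members and 0 over all genes with a peak.

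**Figure D1:**
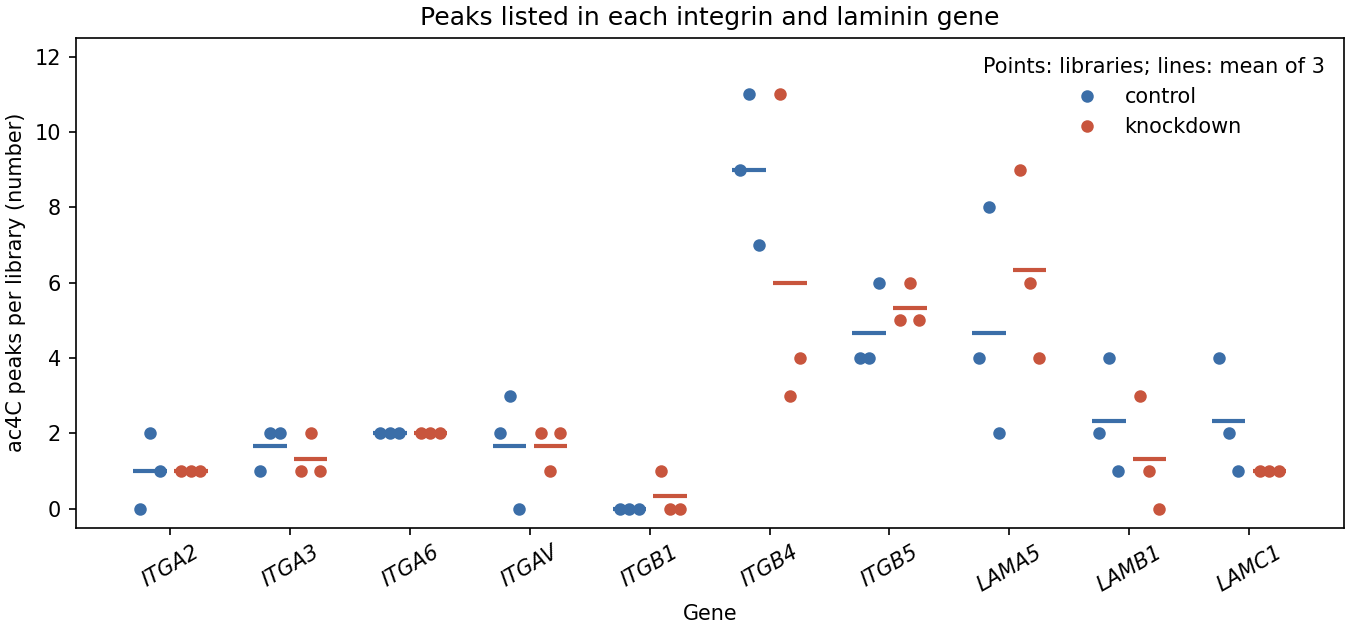
Number of ac4C peaks in each integrin and laminin gene (vertical axis, peaks per library) for the 3 control and 3 NAT10-knockdown libraries, with points for libraries and lines for means of 3. ITGB4 has the most peaks, with 7 to 11 with shControl and 3 to 11 with shNAT10, and the points of the groups overlap or touch in all 10 genes.

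ITGB4, the beta subunit of hemidesmosomes, carried the most peaks, 45 over the 6 libraries. It had 9, 11 and 7 peaks with shControl and 11, 3 and 4 with shNAT10. Knockdown replicate 1 was as high as the highest control library, and knockdown replicates 2 and 3 were below every control library. The means were 9.0 ± 2.0 (SD, n = 3) with shControl and 6.0 ± 4.36 (SD, n = 3) with shNAT10 (exact permutation test, p = 0.4). Without knockdown replicate 1, the library with the most peaks over all genes, the knockdown mean was 3.5 and the groups no longer overlapped (exact permutation test, p = 0.1, the smallest possible). The difference of -3.0 peaks was then -5.5, and without knockdown replicate 2 it was -1.5. Knockdown replicate 1 alone caused the overlap, so leaving it out fixed the separation and is no test of it.

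Along the ITGB4 span (chr17:75721459-75757818, plus strand) 12 regions were listed, and the libraries differed in how many of them they held. Of these, 3 were listed in all 6 libraries, at chr17:75730241-75730504, chr17:75748841-75749045 and chr17:75757200-75757818. The last of them ends at the final base of the gene span, and its score was 3100 in each of the 6 libraries. At chr17:75748841-75749045 the percentiles were 82.9, 87.4 and 93.2 with shControl and 92.7, 94.0 and 93.2 with shNAT10 (exact permutation test, p = 0.3). At chr17:75730241-75730504 they were 90.7, 94.8 and 93.2 with shControl and 92.7, 94.0 and 93.2 with shNAT10 (exact permutation test, p = 0.9). The groups overlapped in both, and every knockdown library was at 3100 there. Knockdown replicate 2 listed these 3 regions and no others, and knockdown replicate 3 added chr17:75743713-75743861. Knockdown replicate 1 listed 11 of the 12 regions, among them chr17:75736565-75736694, which no other library had.

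The region that knockdown replicate 1 lacked, chr17:75724694-75724782, was the one listed in all 3 control and in no knockdown library. It is 89 bases wide and begins 3235 bases into the gene. Its score percentile was 82.6, 86.4 and 93.2 in the control libraries, so it was among the strong peaks of each. The neighbouring region chr17:75727651-75727855 was at 3100 in every control library and in knockdown replicate 1 and was not listed in knockdown replicates 2 and 3. The region chr17:75750680-75750860 had the same pattern of libraries, with control percentiles of 84.4, 84.7 and 93.2 and a knockdown percentile of 92.7.

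A further peak overlaps the start of ITGB4, chr17:75721328-75721563, with a score of 3100 in all 6 libraries. Its midpoint lies 13.5 bases ahead of the annotated span, so it is not among the 55 regions. Counting it would add 1 peak to ITGB4 in every library.

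The genes with peak numbers nearest to those of ITGB4, by the sum of absolute differences over the 6 libraries, were AFF1 and TCF3 at 7 and IGSF9B at 8. AFF1 had 7, 8 and 6 peaks with shControl and 11, 4 and 4 with shNAT10. TCF3 had 9, 10 and 7 with shControl and 11, 6 and 7 with shNAT10. IGSF9B had 2, 11 and 7 with shControl and 10, 3 and 4 with shNAT10. They were picked for this likeness, so the shared pattern is a description.

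ITGB5, the beta subunit of a vitronectin receptor, had 4, 4 and 6 peaks with shControl and 5, 6 and 5 with shNAT10. The means were 4.67 ± 1.15 (SD, n = 3) and 5.33 ± 0.577 (SD, n = 3), which overlapped (exact permutation test, p = 0.6). Without control replicate 3 the means were 4.0 and 5.33, and the groups no longer overlapped (exact permutation test, p = 0.1). That library alone caused the overlap, so leaving it out fixed this outcome and is no test of it. Of its 8 regions on the minus strand of chromosome 3, 4 were listed in all 6 libraries, more than in any other of the 10 genes. The strongest of them, chr3:124886931-124887297, begins 68 bases after a RefSeq start site inside the gene and ranked at the 84.1, 94.8 and 85.6 percentile in control and the 92.7, 83.0 and 81.8 percentile in knockdown libraries.

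In the 3′ part of ITGB5, 2 regions ranked higher in the knockdown libraries. At chr3:124796388-124796817 the percentiles were 58.11, 25.39 and 50.04 with shControl and 76.52, 75.48 and 63.63 with shNAT10. The means were 44.5 ± 17.0 (SD, n = 3) and 71.9 ± 7.16 (SD, n = 3), and every knockdown library lay above every control library (exact permutation test, p = 0.1, the smallest possible). At chr3:124773690-124773912, nearer the 3′ end, the percentiles were 64.9, 42.7 and 59.4 with shControl and 71.2, 67.8 and 70.0 with shNAT10. Here the mean was 55.7 ± 11.6 (SD, n = 3) with shControl and 69.6 ± 1.73 (SD, n = 3) with shNAT10, again without overlap (exact permutation test, p = 0.1). Nearer the 5′ end, at chr3:124873446-124873531, the order of the means was the other way, with 29.1, 51.7 and 66.7 with shControl and 47.3, 24.0 and 28.3 with shNAT10, and the groups overlapped (exact permutation test, p = 0.2).

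These 2 ITGB5 regions were the only ones of the 13 member regions in all 6 libraries whose percentiles did not overlap between groups, both higher in knockdown. Over all 9195 regions listed in all 6 libraries, 6.98% were higher in knockdown and 4.05% higher in control by the same rule. The count of 2 among 13 was not tested against these shares. When only the higher-scored 50% of peaks were kept, neither region was listed in all 6 libraries any longer, because control replicate 2 lay below that limit in both, and so neither could be compared. A percentile is a rank among the peaks of the same library, so it also moves when other peaks are gained or lost.

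**Figure D2:**
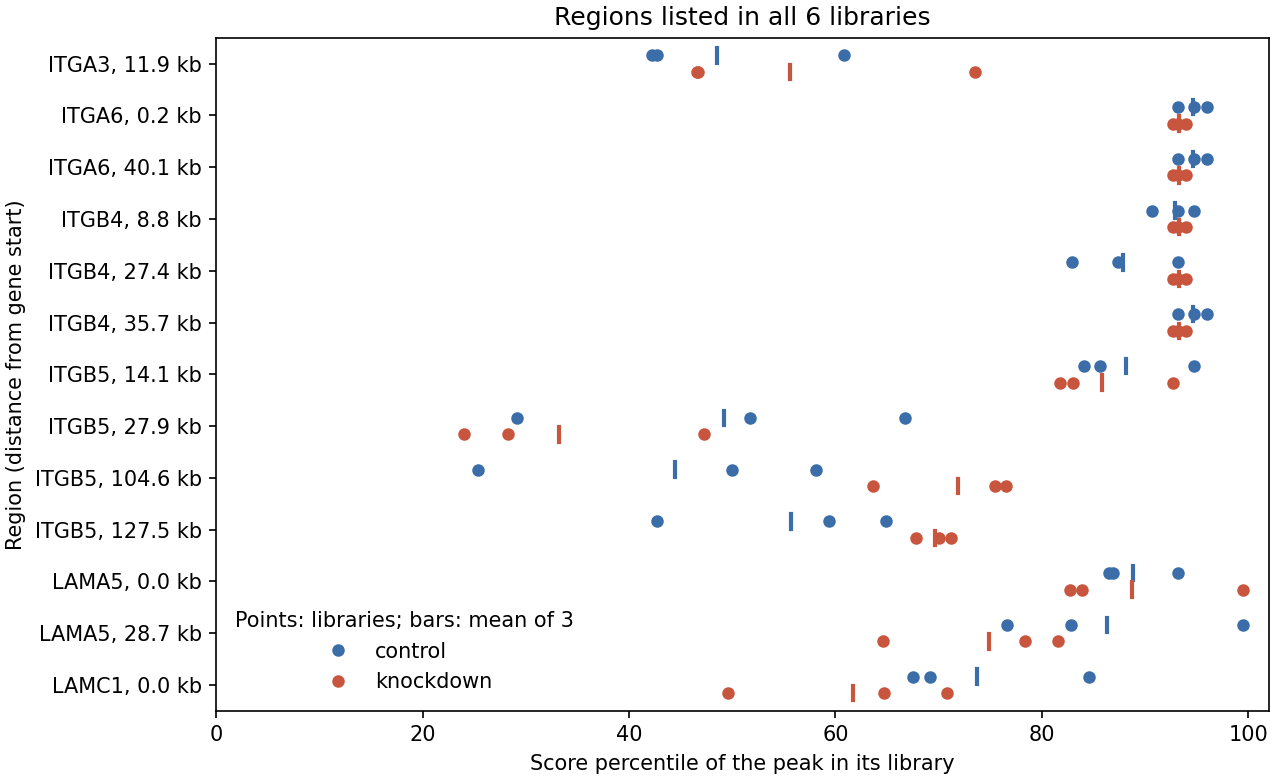
Score percentile within the library (horizontal axis, 0 to 100) of the 13 regions listed in all 6 libraries, named by gene and distance from the gene start in kb, with points for libraries and bars for means of 3. The groups are apart for 2 ITGB5 regions, with means of 44.5 against 71.9 and 55.7 against 69.6, and the points near 93 to 96 are peaks at the tied score of 3100.

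LAMA5, the alpha chain of the main laminin of the adult intestinal basement membrane, had 4, 8 and 2 peaks with shControl and 9, 6 and 4 with shNAT10. The knockdown mean was the higher, 6.33 ± 2.52 (SD, n = 3) against 4.67 ± 3.06 (SD, n = 3), within the spread of the libraries (exact permutation test, p = 0.6). The difference of 1.67 peaks was 3.33 without control replicate 2, 2.83 without knockdown replicate 3 and 0.333 without control replicate 3 or knockdown replicate 1. Control replicate 2 and knockdown replicate 1, the libraries with the most peaks over all genes, were also the highest here. Of its 11 regions, 2 were listed in all 6 libraries. One is the peak at the first base of the gene, chr20:62366949-62367312, at the 86.5, 86.9 and 93.2 percentile with shControl and the 82.7, 99.5 and 83.9 percentile with shNAT10.

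The other LAMA5 region in all 6 libraries, chr20:62338468-62338608, had percentiles of 76.6, 82.8 and 99.5 with shControl and 64.6, 78.4 and 81.6 with shNAT10, which overlapped (exact permutation test, p = 0.4). The region chr20:62346081-62346215 was listed in 1 control and 3 knockdown libraries, and chr20:62320739-62320890 in 0 control and 2 knockdown libraries. Where listed, the first of these ranked at the 85.9 percentile in control replicate 2 and between 84.8 and 92.7 in knockdown. The second ranked at the 69.8 and 76.2 percentile.

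LAMB1, a beta chain that joins LAMA5 and LAMC1 in laminin trimers, had 2, 4 and 1 peaks with shControl and 3, 1 and 0 with shNAT10. The means were 2.33 ± 1.53 (SD, n = 3) and 1.33 ± 1.53 (SD, n = 3), and the libraries overlapped (exact permutation test, p = 0.6). The difference of -1.0 peaks was -0.167 without control replicate 2, -0.333 without knockdown replicate 3, -1.67 without control replicate 3 and -1.83 without knockdown replicate 1. Its peak at the 5′ end, chr7:108002849-108003160 on the minus strand, was listed with the same edges in all 3 control and in no knockdown library. It starts 1 base into the gene and is the peak whose first bases are printed above. It ranked at the 42.4, 53.9 and 26.3 percentile in control libraries, lower than the control-only region of ITGB4.

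None of the 6 LAMB1 regions was listed in all 6 libraries. The next region downstream, chr7:108001558-108002027, was listed in control replicate 2 and knockdown replicate 1, the 2 longest lists. A region at chr7:107998383-107998492 was listed in knockdown replicates 1 and 2 alone, at the 9.92 and 11.0 percentile. The region chr7:107975689-107975877 was listed in control replicates 1 and 2 alone, at the 11.4 and 37.5 percentile.

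The control-only regions of ITGB4 and LAMB1 were 2 of the 55 member regions, and 0 were listed in all knockdown and no control libraries. When only the higher-scored 50% of peaks were kept, that of ITGB4 was left. Over all 41755 regions, 0.34% were listed only with shControl and 0.819% only with shNAT10. Read more loosely, with a difference of at least 2 libraries, 5 member regions had more control and 3 more knockdown libraries, beside 4.07% and 5.92% of all regions. The knockdown side of that count was made of 2 regions of LAMA5 and 1 of LAMB1, and the control side of 3 regions of ITGB4 and 2 of LAMB1. A peak that is not listed may lie just under the calling threshold, since the lists give no value where no peak was called.

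**Figure D3:**
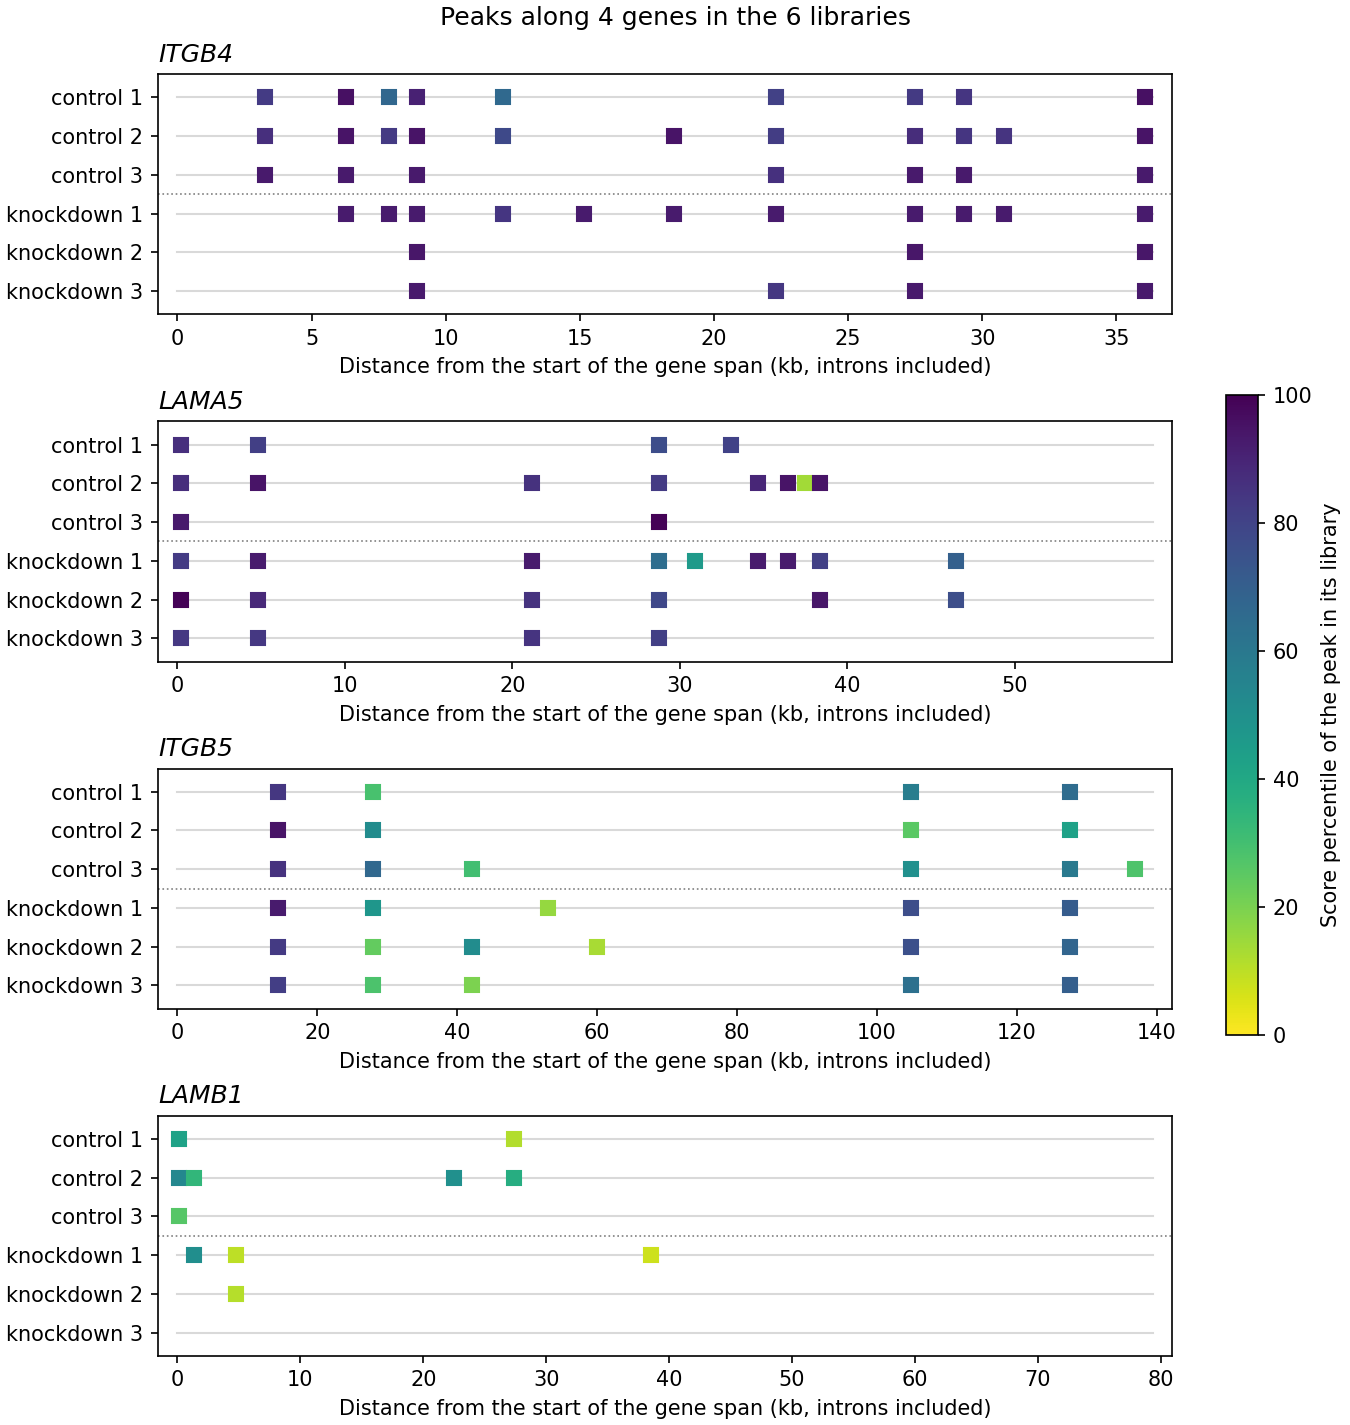
Peaks of ITGB4, LAMA5, ITGB5 and LAMB1 in each library, placed by distance from the start of the gene span (horizontal axis, kb, introns included) and coloured by score percentile in the library. The region of ITGB4 near 3 kb and that of LAMB1 at the gene start appear in the 3 control rows and in none of the 3 knockdown rows, and knockdown replicates 2 and 3 have 3 and 4 ITGB4 regions.

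LAMC1, the gamma chain of most laminins, had 4, 2 and 1 peaks in control and 1 in each knockdown library. Control replicate 3 was at the knockdown level, so the means of 2.33 ± 1.53 (SD, n = 3) and 1.0 ± 0.0 (SD, n = 3) did not separate (exact permutation test, p = 0.4). Without control replicate 3 they were 3.0 and 1.0 and no longer overlapped (exact permutation test, p = 0.1). Since that library alone caused the overlap, leaving it out fixed this outcome and is no test of it. The peak shared by all 6 libraries, chr1:183023460-183024134, begins 40 bases into the gene and at 675 bases was the widest region of the 10 genes. It ranked at the 67.5, 84.6 and 69.2 percentile with shControl and the 70.8, 64.7 and 49.6 percentile with shNAT10 (exact permutation test, p = 0.3). The 4 further LAMC1 regions were each listed in a single control library, at percentiles between 8.74 and 14.6.

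ITGA6, the alpha partner of ITGB4, had the same 2 peaks, edges included, in every library. One, chr2:172427555-172427970, begins 219 bases into the gene span and covers a RefSeq start site inside the gene, chr2:172427586. The other lies mid-gene, chr2:172467481-172467560. Both had a score of 3100 in all 6 libraries. Peaks tied at this score cannot be ranked, although the lists also hold higher scores, up to 3233.06.

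ITGA3, an alpha subunit that binds laminin with ITGB1, had 1, 2 and 2 peaks with shControl and 1, 2 and 1 with shNAT10 (exact permutation test, p = 1.0). The region it listed in all 6, chr17:50068056-50068305, lies 11946 bases into the gene. Its percentile was 42.2, 42.7 and 60.8 with shControl and 73.5, 46.6 and 46.7 with shNAT10, with means of 48.6 ± 10.6 and 55.6 ± 15.5 (SD, n = 3 each) that overlapped (exact permutation test, p = 0.5).

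ITGA2, an alpha subunit that binds collagen and laminin, had 0, 2 and 1 peaks in control and 1 in each knockdown library (exact permutation test, p = 1.0). The peak at its start, chr5:52989326-52989532, was not listed in control replicate 1 and ranked at the 11.5 and 22.4 percentile in the other control and the 32.0, 49.0 and 21.6 percentile in the knockdown libraries. ITGAV, the alpha subunit of vitronectin receptors, had 2, 3 and 0 peaks with shControl and 2, 1 and 2 with shNAT10 (exact permutation test, p = 1.0). Its peak at the first start, chr2:186590065-186590523, was listed in all libraries except control replicate 3, and knockdown replicate 3 alone had a peak that begins at the first base of the second RefSeq start, chr2:186600205-186600364. For both genes the 5′ peak was thus present in 2 control and 3 knockdown libraries.

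ITGB1, the most widely shared beta subunit, had the fewest peaks. A single peak, chr10:32957759-32957894, 336 bases into the gene, was listed in knockdown replicate 1 at the 58.5 percentile, and the other 5 libraries listed none. The presence of a peak is not a measure of expression, and the input libraries were not analysed here.

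Of 19 other integrin genes 13 had a peak, 2 had one in all 6 libraries, and 0 were called by peak number. Over all genes with a peak, 48.6% had one in all 6 libraries, and 6 of the 10 members did. The highest sums were those of ITGA5, ITGA7 and ITGB7, with 12, 11 and 10 peaks over the 6 libraries. Of 28 adaptor and partner genes, which tie integrin tails to actin and to kinases, 27 had a peak, 19 had one in all 6 libraries and 0 were called, with the highest sums in TNS3, PARVB and SRC at 44, 43 and 40 peaks. Of the 156 regions of the adaptor genes 1 was listed in one group alone, chr7:47302950-47303584 in TNS3, which encodes a tensin. It was listed in all 3 knockdown libraries, at the 27.7, 60.7 and 50.1 percentile, and in no control library. Of all 41755 regions, 0.34% were listed only with shControl and 0.819% only with shNAT10.

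Among 8 other laminin genes, 6 had a peak and LAMB3 was called. By the same rule 1.57% of all genes with a peak were called with more peaks with shNAT10. LAMB3 encodes the beta chain of the laminin of hemidesmosomes, the ligand of ITGA6 with ITGB4. It had 6, 8 and 7 peaks with shControl and 14, 11 and 12 with shNAT10, so every knockdown library was above every control library. The means were 7.0 ± 1.0 (SD, n = 3) and 12.3 ± 1.53 (SD, n = 3) (exact permutation test, p = 0.1, the smallest possible). On chromosome 1, 2 of its regions, chr1:209629737-209629925 and chr1:209630615-209630735, were listed in all knockdown and no control libraries, at percentiles between 25.5 and 47.0. They were 2 of the 56 regions of these laminin genes, while 0.819% of all regions were listed only with shNAT10. LAMA3, the alpha chain of the same laminin, was not called, with 2, 6 and 4 peaks with shControl and 7, 2 and 3 with shNAT10.

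Of 15 genes of the basement membrane and other matrix ligands, 12 had a peak. In all 6 libraries 8 of them had one, beside 48.6% of all genes with a peak. FN1 was called by peak number. By the same rule 0.651% of all genes with a peak were called with more peaks with shControl. FN1 encodes fibronectin, and it had 2, 3 and 2 peaks with shControl and 1, 0 and 0 with shNAT10 (exact permutation test, p = 0.1). Its region chr2:215435655-215436172 was listed in control libraries alone, at the 11.8, 53.4 and 6.16 percentile. So was a region of NID1, the laminin-binding nidogen, chr1:235980496-235980653, at the 25.8, 22.4 and 7.41 percentile. They were 2 of the 81 regions of the matrix genes, while 0.34% of all regions were listed only with shControl. The matrix genes with the most peaks were HSPG2, the basement membrane proteoglycan perlecan, with 14, 17 and 13 against 18, 14 and 12 peaks, NID1 with 6, 9 and 10 against 7, 4 and 4, and the syndecan SDC1 with 3 in each control and 4, 4 and 3 in knockdown libraries.

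By score percentile, 6 of the 37 regions of the adaptor genes that were listed in all 6 libraries did not overlap between groups, 5 higher with shNAT10 and 1 with shControl, beside 6.98% and 4.05% of all such regions. The genes were named after their values were seen. ACTN1, an actinin that links integrins to actin, had the widest gap at chr14:68921006-68921125, with percentiles of 36.1, 29.5 and 53.8 with shControl and 70.4, 67.1 and 70.3 with shNAT10. The other 4 higher regions were 2 of PARVB, a parvin, and 1 each of the adaptor CRK and the tensin TNS4. The region higher with shControl was in TLN1, the talin that binds integrin tails, with 99.8, 94.8 and 93.2 against 92.7, 87.6 and 93.2. Control replicate 3 and knockdown replicate 3 were both at the tied score of 3100, so this separation rests on peaks without order. Of the 16 such regions of the matrix genes 1 was higher in each direction. SDC1 at chr2:20205343-20205424 ranked at 55.6, 59.3 and 53.9 with shControl and 99.8, 94.0 and 81.6 with shNAT10, and HSPG2 at chr1:21896175-21896310 ranked at 73.7, 81.9 and 83.4 with shControl and 71.2, 67.5 and 62.6 with shNAT10. The 2 shared regions of the other integrins and the 4 of the other laminins overlapped. Each of these 8 separations has p = 0.1 in the exact permutation test, but that of TLN1 holds only through tied scores. None was tested as a group.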

How the data were processed

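The authors deposited 1 peak list per immunoprecipitation library of SW620 cells, with chromosome, start, end, strand and a peak score, and did not pool replicates. Peak names are those of MACS, and the genome build is GRCh38 per the labels. The aligner, annotation, caller version and settings are not given in the sources used here. The deposited score ran from 50 to 3233.06. Its scale is not stated, and it was only ranked within a library.

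Peaks overlapping by at least 1 base on a strand were merged across libraries. Strands came from the RefSeq promoter table for 15843 genes and from most peaks in the span for 2384, while 1829 genes without a strand were left out of the counts. Peak numbers and percentiles were compared by two-sided exact permutation tests, unadjusted, over the 10 member genes and their 13 shared regions. The same test was run, also unadjusted, on the peak numbers of every gene of the adhesion and marker lists. For shared regions of the adhesion lists it was run only where percentiles did not overlap, which fixes p at 0.1. With 3 against 3 libraries p cannot fall below 0.1, so no adjusted value could pass 0.05. Each p is the share of assignments of the libraries to groups with a mean difference at least as large as that seen. The spread between these libraries may be technical. All members, the regions called and those with the highest percentile in each gene were named, with called genes and the 3 genes with most peaks of 4 hand-written adhesion lists. Of the genes this rule names, 1 is not reported here. Members and lists were chosen with earlier results of these data known. Alternatives were score filters, gene and strand assignment, coverage of at least 50% of a region, looser calls, a block for the replicate number, and leaving out each library. The code was tested on simulated lists of 20000 regions with 200 planted ones. Python 3.11.15 with numpy 2.4.6 and pandas 2.3.3 was used.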

Additional observations from a re-analysis of the deposited data

How the results depend on the processing

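With peaks in the span of 1 gene, without regard to strand, with equal numbers of highest-scored peaks (17877 per library), or with overlap in place of the midpoint, a setting chosen after the data were seen, the counts for genes, one-group regions and percentiles remained 0, 2 and 2. When only the higher-scored 50% of peaks were kept, 1 region was control-only, and 0 shared regions had percentiles apart, since both ITGB5 regions left the set listed in all 6 libraries through their low rank in control replicate 2. A difference of at least 2 libraries gave 8 regions.

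Leaving out 1 library at a time gave 0 to 2 genes, 2 to 4 one-group regions, 2 to 7 regions with percentiles apart and a summed difference, knockdown minus control, from -7.83 to 1.33 peaks against -3.0. Without control replicate 3, ITGB5 and LAMC1 were called, and without knockdown replicate 1, ITGB4. In each case the library left out was the one that caused the overlap. One-group regions were 4 without knockdown replicate 1 or 3. Regions with percentiles apart were 4, 7, 5 and 6 without control replicates 1 and 3 and knockdown replicates 1 and 2, and without control replicate 3 or knockdown replicate 2 they included 3 tied at 3100 in all libraries, whose order means nothing. The summed difference was 1.33 without control replicate 2 and 0.167 without knockdown replicate 3. Fewer libraries also make each call easier.

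The labels do not say whether the replicate numbers pair the libraries. Deviations of same-numbered libraries correlated at 0.0295, 0.00234 and 0.0318 across regions, and those of differently numbered ones at -0.0335 to 0.0117. Such values cannot show whether libraries were handled in pairs. With the replicate block 0 genes and 6 shared regions moved one way in every pair, 3 of them tied at 3100, and the summed difference was -3.0. Because depth is unknown, a peak that is missing from a list may be present in the RNA.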
